A study of Mus musculus with 16 samples.

Results

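The 9 genes described here are the cyclins of the mouse cell cycle, Ccnd1, Ccnd2, Ccnd3, Ccne1, Ccne2, Ccna2, Ccnb1 and Ccnb2, together with Cdk1, the kinase that the A-type and B-type cyclins activate. They were taken by gene symbol from the 23356 genes in the files. RNA was measured in NIH3T3 cells, an embryonic mouse fibroblast line, stably carrying a destabilizing domain fused to superfolder GFP (DD-sfGFP) and, by the study's methods, sorted as a population with high GFP. The 16 libraries formed 4 groups of 4 replicates, namely cells without bortezomib (control, 0 min) and cells collected 45, 135 and 405 min after bortezomib, a drug that blocks the chymotrypsin-like activity of the proteasome. Every group carried DD-sfGFP. The dose of bortezomib was not given in the sources used here, and no untreated cells were collected at the later times, so the drug and the time elapsed in culture cannot be told apart. Nothing in the labels says whether the replicates came from separate cultures, and the p-values therefore measure the spread between these libraries only.

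Cyclins bind and activate cyclin-dependent kinases, and most of them are present for only a portion of the cycle. The D-type cyclins, with Cdk4 and Cdk6, are made in response to growth factors in G1 and phosphorylate the retinoblastoma protein. The E-type cyclins with Cdk2 act at entry into S phase, cyclin A2 acts through S phase and G2, and the B-type cyclins with Cdk1 drive mitosis. Cyclin proteins are destroyed by the proteasome, whereas the values below are RNA levels. Transcription of the A-type and B-type cyclins and of Cdk1 is restricted to the later cycle through CCAAT boxes, bound by NF-Y, and through the cell cycle genes homology region (CHR), bound by the DREAM and MuvB complexes. E-type cyclin genes are classical E2F targets.

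The promoter windows of 3 mitotic members and of Ccne1 are shown because these motifs belong to the 2 classes of genes compared below. Each is written 5′ to 3′ on the gene's strand and runs from 140 bases before the RefSeq transcript start to 20 bases after it in mouse build GRCm38.p6. They lie at chr13:100786467-100786626 (minus strand, Ccnb1), chr9:70421535-70421694 (minus, Ccnb2), chr10:69352893-69353052 (minus, Cdk1) and chr7:38107471-38107630 (minus, Ccne1). Capitals mark every match on either strand to the box CCAAT (on the opposite strand it reads ATTGG), to the CHR form TTTGAA or its variant form TTCGAA, and to the E2F site TTTCGCGC or its variant TTTGGCGC.

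Ccnb1: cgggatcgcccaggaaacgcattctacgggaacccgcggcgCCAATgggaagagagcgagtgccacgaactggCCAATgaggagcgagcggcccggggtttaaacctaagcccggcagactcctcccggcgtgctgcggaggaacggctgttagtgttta
Ccnb2: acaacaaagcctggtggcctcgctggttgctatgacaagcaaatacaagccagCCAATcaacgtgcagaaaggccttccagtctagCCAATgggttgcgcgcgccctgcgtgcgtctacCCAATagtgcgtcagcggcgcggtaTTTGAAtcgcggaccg
Cdk1: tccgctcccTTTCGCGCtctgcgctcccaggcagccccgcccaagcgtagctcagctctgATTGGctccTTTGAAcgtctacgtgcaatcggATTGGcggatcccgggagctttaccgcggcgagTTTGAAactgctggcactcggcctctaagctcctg
Ccne1: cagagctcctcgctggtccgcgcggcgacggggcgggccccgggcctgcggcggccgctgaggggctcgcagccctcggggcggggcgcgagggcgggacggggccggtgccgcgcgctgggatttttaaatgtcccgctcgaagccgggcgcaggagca

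The Ccnb1 window held CCAAT at -99 and -67, counted with the first transcribed base as +1. The Ccnb2 window held CCAAT at -87, -54 and -21 and TTTGAA at +5. In the Cdk1 window CCAAT lay on the opposite strand at -80 and -48, beside TTTGAA at -71 and -15 and TTTCGCGC at -131. No match to any of these forms was present in the Ccne1 window. Other forms of the motifs were not searched for in any window. Of 32851 RefSeq mouse promoter windows of the same length, 25.2% held CCAAT at least once and 6.21% at least 2 times, 9.33% held TTTGAA, 0.691% TTCGAA, 0.177% TTTCGCGC and 0.292% TTTGGCGC. RefSeq entries were matched for 5 of the 9 members. The fifth, Ccnd3, had 2 windows, of which 1 held CCAAT at -108. Ccnd1, Ccnd2, Ccne2 and Ccna2 were not matched. These matches are a description of the letters in the windows.

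The libraries differed strongly in composition, and the members are therefore described by library class. Fragments per library ranged from 570323 to 19930375. In 7 libraries the ribosomal protein genes (symbols beginning Rpl or Rps with a digit) held between 4.25% and 9.42% of the fragments. In the other 9 they held between 0.398% and 1.21%, and there the Olfr and Vmn chemoreceptor genes held 4.16% to 5.13%, against 0.00556% to 2.62% in the first 7. The RP-rich libraries, those over 4%, were replicates 1 and 2 at 45 min, replicates 1 and 2 at 135 min and replicates 1, 3 and 4 at 405 min, and the others are termed RP-poor. No control library was RP-rich, so that a comparison with control mixes time with library class. Summed levels of 11 fibroblast markers were 3539 to 19869 counts per 1000000 (CPM) in the RP-rich libraries and 389 to 1735 CPM in the RP-poor ones. Markers of epithelial cells (6 genes) summed to 0.381 to 121 CPM in the RP-rich and 146 to 209 CPM in the RP-poor libraries. In the RP-poor libraries a member was covered by between 0 and 135 fragments, so that single values there are imprecise, and a member listed at 0 may be an estimate that failed. Hspa1b, an inducible Hsp70 gene that responds to proteasome inhibition, served as the check of the treatment. In the RP-rich libraries it stood at 71.6 and 163 CPM at 45 min, 2427 and 770 CPM at 135 min and 2834, 10097 and 5899 CPM at 405 min. Its log2 fold change there from 45 to 405 min was 5.55 (edgeR adjusted p = 0.605). From control to 405 min over all libraries it was 8.20 (edgeR adjusted p = 0.416). Hspa1b itself was thus not called in either of these comparisons. In the RP-poor class its only library at 405 min held 1292 CPM against 19.7 to 48.8 CPM in the controls (log2 fold change 5.35). The RP-poor libraries held 12.9 and 52.9 CPM at 45 min and 42.1 and 51.1 CPM at 135 min, near the range of the controls. In this class the check therefore rests on that 1 library of 405 min, which the fit assumes to vary like the other groups.

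In the RP-rich libraries the RNA of Ccna2, Ccnb1, Ccnb2 and Cdk1, together termed the mitotic members, was 3.34 to 3.997 times lower at 405 min than at 45 min, and for each of them all 3 libraries at 405 min lay below both at 45 min. Ccnd1, Ccnd2, Ccnd3 and Ccne1 overlapped between these times, and Ccne2 lay slightly higher at 405 min in every library. None of the 9 members passed edgeR's quasi-likelihood test across all genes at an adjusted p under 0.05 in any of the comparisons made, and the differences are therefore given as values and not as established changes.

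Ccnb1, whose protein forms the core of the mitosis-promoting kinase, was at 364 and 280 CPM at 45 min, 118 and 226 CPM at 135 min and 62.4, 62.1 and 122 CPM in replicates 1, 3 and 4 at 405 min. Both libraries of 45 min were above all others, and of those at 135 min replicate 1 lay just below the highest library of 405 min. The log2 fold change from 45 to 405 min was -1.999 (SE 0.75, edgeR adjusted p = 0.605).

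Ccna2, the cyclin of S phase and G2, was at 428 and 493 CPM at 45 min, 249 and 250 CPM at 135 min and 131, 107 and 194 CPM at 405 min. None of its 3 groups overlapped another, and the levels stood in the order of the times from high to low. The share of all genes with such an order was not determined. Its log2 fold change from 45 to 405 min was -1.74 (SE 0.78, edgeR adjusted p = 0.605).

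Ccnb2, the second B-type cyclin, was at 40.6 and 41.8 CPM at 45 min, 78.6 and 23.9 CPM at 135 min and 11.04, 10.1 and 14.2 CPM at 405 min. Its libraries at 135 min lay on either side of those at 45 min, and the low values were those of 405 min. Its log2 fold change was -1.89 (SE 0.87, edgeR adjusted p = 0.605).

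Cdk1 was at 190 and 479 CPM at 45 min, 413 and 127 CPM at 135 min and 83.5, 131 and 101 CPM at 405 min. Here the replicates at 45 and at 135 min differed more than 2-fold, and 1 library of 135 min lay within the range of 405 min. Its log2 fold change was -1.84 (SE 0.79, edgeR adjusted p = 0.605).

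The 3 D-type cyclins, which act in G1, did not share a course. Ccnd1, the main D-type cyclin of fibroblasts, was at 168 and 70.9 CPM at 45 min, 60.2 and 69.9 CPM at 135 min and 134, 75.8 and 60.3 CPM at 405 min (log2 fold change from 45 to 405 min -0.61, SE 0.68, edgeR adjusted p = 0.833). Ccnd2 was at 202 and 50.4 CPM at 45 min, 38.0 and 108 CPM at 135 min and 391, 52.7 and 172 CPM at 405 min (log2 fold change 0.56, SE 0.84, edgeR adjusted p = 0.901). Both genes were highest in replicate 1 of 45 min and replicate 1 of 405 min, and the spread within a time exceeded the difference between times. Ccnd3 was at 6.04 and 0.655 CPM at 45 min, 5.07 and 8.19 CPM at 135 min and 19.4, 10.1 and 2.41 CPM at 405 min (log2 fold change 1.35, SE 2.42). It was covered by only 4 fragments in replicate 2 of 45 min.

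Both E-type cyclins were low throughout. Ccne1 was at 21.4 and 10.5 CPM at 45 min, 5.39 and 9.92 CPM at 135 min and 17.4, 13.0 and 10.1 CPM at 405 min (log2 fold change -0.43, SE 1.52). Ccne2, its paralog at the G1 to S transition, was at 16.05 and 9.82 CPM at 45 min, 22.5 and 24.8 CPM at 135 min and 20.1, 20.9 and 27.9 CPM at 405 min (log2 fold change 0.74, SE 1.10). The libraries of 405 min lay above those of 45 min for Ccne2 and overlapped them for Ccne1.

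**Figure D1:**
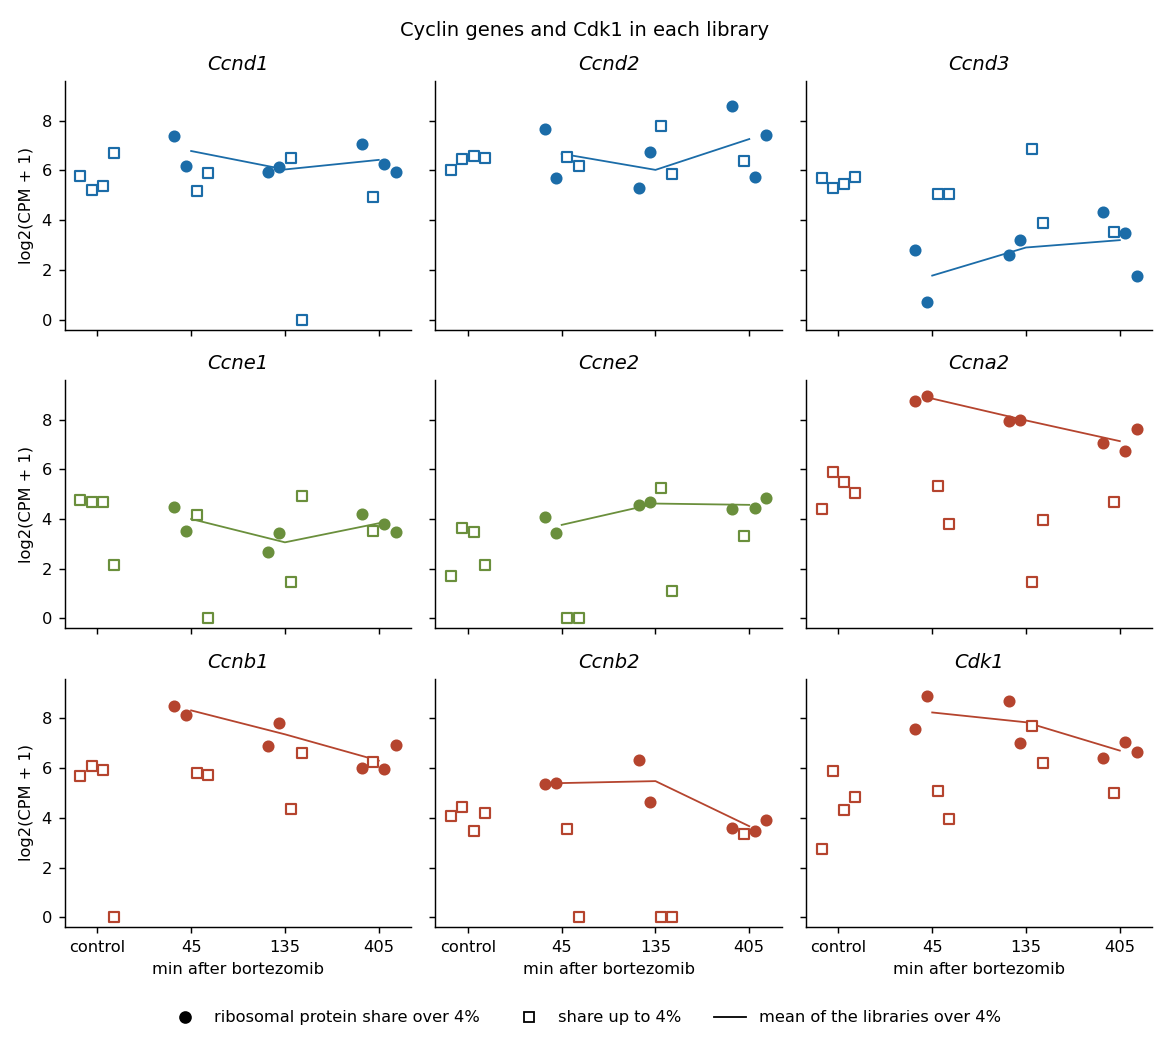
Level of each member in each library as log2(CPM + 1), by time after bortezomib, with replicates 1 to 4 from left to right within a group, filled circles for libraries with over 4% of ribosomal protein fragments, open squares for the others, and a line through the means of the filled circles. The filled circles of Ccna2, Ccnb1, Ccnb2 and Cdk1 at 405 min all lie below those at 45 min, whereas those of Ccnd1, Ccnd2, Ccnd3 and Ccne1 overlap.

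Read against all genes, the non-overlap of the mitotic members was not rare. Of the 9391 genes with a mean of at least 10 CPM in the RP-rich libraries, 14.6% had all libraries of 405 min below both of 45 min and 9.52% had all of them above. Of the 8 members at that level, Ccna2, Ccnb1, Ccnb2 and Cdk1 were in the first set and Ccne2 in the second, and 3 were in neither. In the test between 45 and 405 min, 0.0311% of the 19277 genes tested were called, 2 higher and 4 lower, and 0 of the 9 members. At an unadjusted p under 0.05, 4 members were lower and 0 higher, against 1.86% of all tested genes lower and 3.25% higher. DESeq2 and edgeR's exact test also called 0 of 9, with smallest adjusted p-values of 0.0886 for DESeq2 and 0.946 for the exact test. The median log2 fold change of all tested genes was 0.94 and depended on the scaling (1.22 with RLE factors, 0.61 with TMMwsp factors, 1.23 with none), so that the mitotic members lay further below the bulk of the genes than below 0. Among the genes with a mean of at least 10 CPM the median was 0.24. The 4 mitotic members stayed negative in all 19 alternative fits, from -2.78 to -0.995 on the log2 scale. The estimated biological coefficient of variation was 138%.

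For the intermediate steps, 0 of the 9 members were called from 45 to 135 min, where 0% of all genes tested were called, and 0 from 135 to 405 min, where 0.0208% were. At an unadjusted p under 0.05, edgeR gave 0 members in the first step and 1, Ccnb2, lower in the second, where 1.01% of all tested genes were lower, and DESeq2 and the exact test called 0 of 9 in both. The 4 mitotic members all had negative fitted changes from 135 to 405 min (median -1.19 on the log2 scale, against 0.05 for all genes), and 3 of the 4 from 45 to 135 min (median -0.70, against 0.75). In the fit of genes with a mean of at least 10 CPM, the medians of all genes were 0.17 from 135 to 405 min and 0.02 from 45 to 135 min. Those of the 4 mitotic members were -1.20 and -0.61.

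The ratio of S and mitotic to G1 cyclin RNA gives the comparison of the classes within each library, where scaling between libraries cancels. Fragments of Ccna2, Ccnb1, Ccnb2 and Cdk1 were summed and divided by those of Ccnd1, Ccnd2 and Ccnd3. In the RP-rich libraries the ratio was 2.72 in replicate 1 and 10.6 in replicate 2 of 45 min. It was 8.30 in replicate 1 and 3.38 in replicate 2 of 135 min. The libraries of 405 min had ratios of 0.528, 2.24 and 1.83 in replicates 1, 3 and 4. All libraries of 405 min lay below those of both earlier times. With Ccnd1 alone as the denominator 45 and 405 min overlapped, replicate 4 of 405 min having a log2 ratio of 2.84 and replicate 1 of 45 min one of 2.61. With all 3 D-type cyclins, replicate 1 of 405 min was the only RP-rich library with more D-type than mitotic fragments. The mean log2 ratio was 2.43 ± 1.39 (SD, n = 2), 2.40 ± 0.92 (SD, n = 2) and 0.37 ± 1.13 (SD, n = 3) at 45, 135 and 405 min. No test was made of this sum over chosen genes.

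As a share of the fragments of all 9 members, the mitotic members held 71.2% (95% Wilson interval 70.7 to 71.8) and 90.1% (89.4 to 90.7) at 45 min. At 135 min they held 86.7% (85.5 to 87.9) and 74.0% (72.6 to 75.3). At 405 min the shares were 33.1% (32.3 to 33.9), 64.3% (60.6 to 67.8) and 61.2% (60.4 to 62.0). The intervals cover counting error only, and the replicates of a time differed by far more than these intervals.

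**Figure D2:**
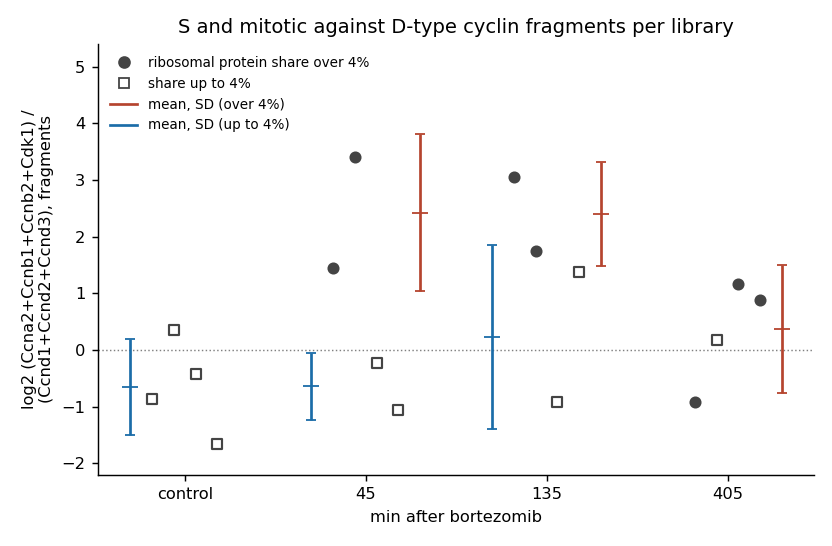
Log2 ratio of summed Ccna2, Ccnb1, Ccnb2 and Cdk1 fragments to summed Ccnd1, Ccnd2 and Ccnd3 fragments in each library, by time after bortezomib, with replicates 1 to 4 from left to right; bars give the mean and SD of each class with at least 2 libraries. Among the RP-rich libraries (filled circles) the ratios run from 2.72 to 10.6 at 45 min and from 0.528 to 2.24 at 405 min, and the controls (open squares) from 0.316 to 1.27.

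The controls cannot set the starting point of this course, because all 4 were RP-poor. In them the ratio was 0.550, 1.27, 0.747 and 0.316, and in the RP-poor libraries as a whole it ranged from 0.316 to 2.61. These overlapped the RP-rich libraries at 405 min but not those at 45 min. Of the members, only Ccna2 did not overlap between the library classes. It ranged from 107 to 493 CPM in the RP-rich and from 1.75 to 59.2 CPM in the RP-poor libraries. Ccnb1 (62.1 to 364 against 0 to 95.4 CPM), Ccnb2 (10.1 to 78.6 against 0 to 20.9 CPM) and Cdk1 (83.5 to 479 against 5.65 to 205 CPM) overlapped. So did Ccnd1 (60.2 to 168 against 0 to 104 CPM), Ccne1 (5.39 to 21.4 against 0 to 29.5 CPM), Ccnd2, Ccnd3 and Ccne2. The share of all genes without overlap between the classes was not determined. Library class and time cannot be told apart in a comparison with the controls.

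**Figure D3:**
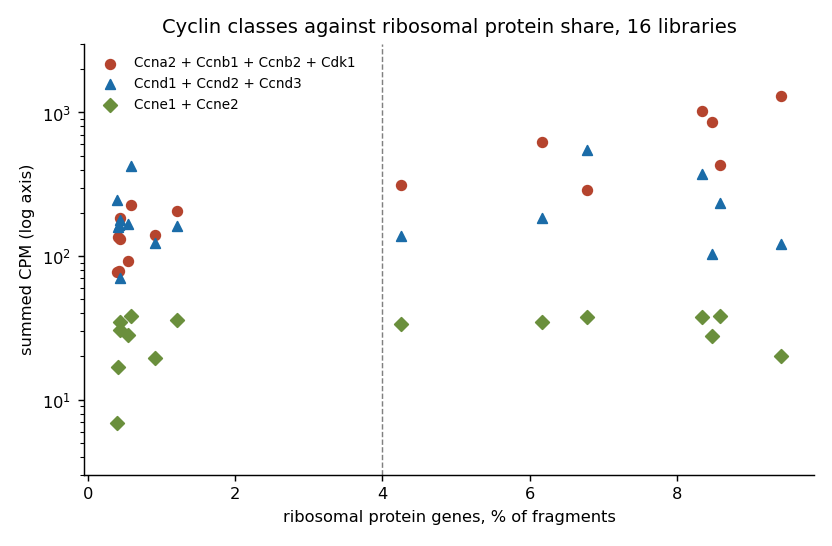
Summed CPM (log axis) of the mitotic members (red circles), the D-type cyclins (blue triangles) and the E-type cyclins (green diamonds) against the percentage of fragments in ribosomal protein genes, 1 point per library and class, with a dashed line at the 4% limit between the library classes. All 4 controls lie to the left of the line, between 0.398% and 1.21%.

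Across all 16 libraries, 8 of the 9 members had positive fitted changes from control to 405 min, and 0 were called, where 0.00517% of the 19357 genes tested were. Of all tested genes 43.1% had positive fitted changes. At an unadjusted p under 0.05, edgeR gave 2 members, both higher, and 9.66% of all tested genes were higher. Ccnd2, at 63.2, 87.1, 94.3 and 89.0 CPM in controls and 391, 83.2, 52.7 and 172 CPM at 405 min, had a log2 fold change of 2.47 (SE 0.96, edgeR adjusted p = 0.421). Cdk1, at 5.65, 58.0, 19.1 and 27.8 CPM in controls and 83.5, 31.2, 131 and 101 CPM at 405 min, had one of 2.71 (SE 1.19, edgeR adjusted p = 0.469). In both genes the single RP-poor library of 405 min, replicate 2, lay within the range of the controls, and the higher values belonged to RP-rich libraries. The fitted changes of the other A-type and B-type members were 2.76 for Ccna2, 1.86 for Ccnb1 and 0.55 for Ccnb2. With the log2 ribosomal protein share as a covariate these became -1.34, -0.090 and -2.55, and those of Ccnd1, Ccnd3, Ccne1 and Ccne2 changed sign as well. Over the same libraries, 0 of 9 members were also called from 45 to 405 min and from 135 to 405 min, where 0.0103% and 0.00517% of all genes were, and from control to 45 min, from control to 135 min and from 45 to 135 min, where 0% were. At an unadjusted p under 0.05 edgeR gave Ccna2, Ccnb1 and Cdk1 higher at 45 min and Cdk1 higher at 135 min than in control, and no member in the other comparisons. Of all tested genes 6.22% were higher by this rule at 45 min and 3.15% at 135 min. The exact test of edgeR called 0 of 9 in each of these comparisons, with a smallest adjusted p of 0.241 from control to 405 min. DESeq2 called Cdk1 higher at 45 min than in control (adjusted p = 0.0413) and no other member, but gave no adjusted p to 5 members for 45 and 135 min against control and to 4 for 405 min against control. The share of all genes that DESeq2 called was not determined. At 45 min Cdk1 was at 190 and 479 CPM in the RP-rich libraries. Its RP-poor libraries of 45 min, at 32.7 and 14.4 CPM, lay within the range of the controls, with a log2 fold change of -0.21 in the RP-poor fit. Ccna2 and Ccnb1 too lay above all controls at 45 min only in RP-rich libraries.

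Ccnd3 was the member whose groups did not overlap between control and 405 min over all libraries. It was at 50.8, 38.3, 42.6 and 52.0 CPM in the controls and 19.4, 10.4, 10.1 and 2.41 CPM at 405 min. Among the 16007 genes with a mean of at least 10 CPM, 8.75% were lower without overlap and 3.69% higher. The RP-poor library of 405 min (10.4 CPM, from 8 fragments) lay below the controls, as did the RP-rich ones, but RP-rich libraries at 45 min were as low, at 6.04 and 0.655 CPM. Its fitted log2 fold change was -0.95 (SE 1.15, edgeR adjusted p = 0.948), and with the ribosomal protein share as a covariate it was 0.40.

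Within the 9 RP-poor libraries, the only class that holds controls, no member was called at any time. Against control, 0% of the 21245 genes tested were called for 45 min, 0.0377% for 135 min and 0.00941% for 405 min. With edgeR's p left unadjusted and under 0.05, Cdk1 was higher and Ccnb2 lower in the comparison of 135 min with control, and 0 members passed in the comparisons of 45 and 405 min. Of all genes tested in this class, 0.692% were higher and 13.0% lower at 135 min by the same rule. DESeq2 and the exact test called 0 of 9 in this class, with smallest adjusted p-values of 0.0738 and 0.214. Cdk1 was at 205 and 73.8 CPM in the RP-poor libraries of 135 min against 5.65 to 58.0 CPM in the controls. Ccnb2 was listed at 0 in both of these libraries and was at 10.1 to 20.9 CPM, from 9 to 18 fragments, in the controls. Ccnb1, at 50.8, 67.3, 59.5 and 0 CPM in controls, was at 75.4 CPM in the only RP-poor library of 405 min. A course of the mitotic members like that of the RP-rich libraries could not be read in this class at its depth.

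Levels of the members can be compared with each other only per length, which the deposited FPKM values (fragments scaled to transcript length and library size) approximate. The scaling of a gene relative to others varied between libraries. In replicate 1 of 135 min Ccnd3 had 9.96 FPKM from 16 fragments and Ccne1 4.57 from 17. In replicate 1 of 405 min they had 8.35 from 295 and 7.33 from 265. The order of the low members is therefore approximate. In the RP-rich libraries, with the 3 times pooled, the median FPKM was 87.2 for Ccna2, 69.9 for Ccnb1, 46.0 for Cdk1, 23.3 for Ccnd1, 17.5 for Ccnd2, 16.3 for Ccnb2, 7.03 for Ccne1, 6.45 for Ccne2 and 4.69 for Ccnd3. The order was not that of every library, and in replicate 1 of 405 min Ccnd2 was first at 67.6 FPKM, above Ccna2 at 51.9, Cdk1 at 33.0 and Ccnb1 at 31.3 FPKM. Cdk1 exceeded Ccnd1 in 7 of 7 of these libraries. Neighbours in the order were otherwise less distinct, with Ccna2 above Ccnb1 in 5 of 7, Ccnb1 above Cdk1 in 3 of 7, Ccnb2 above Ccne1 in 6 of 7 and Ccne1 above Ccne2 in 3 of 7 libraries. In the RP-poor libraries the median order differed, with Ccnb1 first at 21.4 FPKM, Ccnd3 next at 17.9 and Ccna2 at 7.98.

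Most genes of G2 and mitosis had negative fitted changes, as Ccnb1 had, in the RP-rich libraries. From 45 to 405 min in the RP-rich libraries 35 of the 40 genes of that list had negative fitted changes, with a median of -1.13 on the log2 scale against 0.94 for all genes, and 0 were called. In the fit of genes with a mean of at least 10 CPM, the median was -1.07 for the list and 0.24 for all genes. Of the 39 with a mean of at least 10 CPM, 25 had all libraries of 405 min below both of 45 min, and 1 had all above. The shares of all genes at that level were 14.6% below and 9.52% above. Mki67, the Ki-67 proliferation antigen, was at 2057 and 1368 CPM at 45 min and 574, 672 and 1121 CPM at 405 min (log2 fold change -1.16, SE 1.11). Cenpe, a kinetochore motor, was at 917 and 1120 CPM at 45 min and 273, 433 and 732 CPM at 405 min (log2 fold change -1.12, SE 0.9996). Cenpf, a kinetochore protein, was at 847 and 1139 CPM at 45 min and 270, 465 and 611 CPM at 405 min (log2 fold change -1.22, SE 0.98). In all 3 genes these times did not overlap, and replicate 4 was the highest at 405 min. The 5 genes with positive fitted changes were Wee1, Cdc25c, Cdc25a, Mybl2 and Pkmyt1, named after their values were seen. Wee1 and Pkmyt1 encode kinases that inhibit Cdk1, and the Cdc25 phosphatases reverse that inhibition. In the RP-poor libraries, against control, 15 of the 40 had positive fitted changes at 45 min (median -0.37 on the log2 scale). At 135 min 12 were positive (median -0.52), and at 405 min, with its 1 library, 25 (median 0.18). Of all tested genes 47.3%, 35.8% and 50.6% were positive at these times (medians -0.05, -0.44 and 0.009). The list thus had a share near that of all genes at 135 min. At 45 and 135 min 0 of the 40 were called.

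The E2F factors and S phase genes were divided, with 16 of 28 positive and 12 negative, a median of 0.27 and 0 called. Of all tested genes 70.4% were positive, with a median of 0.94. In the fit of genes with a mean of at least 10 CPM, the median was 0.39 for this list and 0.24 for all genes. Of the 27 at a mean of at least 10 CPM, 3 lay lower and 1 higher without overlap. Among all genes at that level 14.6% lay lower and 9.52% higher, and neither count exceeded these shares. Pcna, the sliding clamp of DNA polymerase, was at 574 and 1366 CPM at 45 min, 2191 and 499 CPM at 135 min and 378, 1007 and 510 CPM at 405 min (log2 fold change -0.84, SE 1.07). Mcm4, a subunit of the replicative helicase, was at 304 and 731 CPM at 45 min and 301, 531 and 360 CPM at 405 min (log2 fold change -0.57, SE 0.93). Tyms, thymidylate synthase, ranged from 72.3 to 2969 CPM over the 7 libraries (log2 fold change 2.07, SE 1.22). All 3 genes overlapped between times.

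Among the partners and inhibitors of the G1 cyclins, 7 of the 15 tested of 17 listed were positive and 8 negative, with a median of -0.18 and 0 called. Of all tested genes 70.4% were positive, with a median of 0.94. In the fit of genes with a mean of at least 10 CPM, the median was -0.10 for this list and 0.24 for all genes. Of the 14 at that level, 2 lay lower and 1 higher without overlap, against 14.6% and 9.52% of all genes. Cdk4, the kinase partner of the D-type cyclins, was at 378 and 85.5 CPM at 45 min and 352, 31.8 and 196 CPM at 405 min (log2 fold change -0.36, SE 0.85). Like Ccnd1 and Ccnd2 it was highest in replicate 1 of 45 min and of 405 min. Myc, an activator of G1 cyclin genes, stayed between 111 and 143 CPM in all 7 libraries (log2 fold change -0.18, SE 0.68). Rbl1, the pocket protein p107, ranged from 29.2 to 171 CPM (log2 fold change -0.43, SE 0.76).

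The other cyclin genes, most of which serve transcription or functions outside the core cycle, were divided too, with 9 of 17 positive, a median of 0.04 and 0 called. Of all tested genes 70.4% were positive, with a median of 0.94. Of the 13 with a mean of at least 10 CPM, 4 lay lower without overlap, Ccni and Ccnl1 among them, and 2 higher. Among all genes at that level the shares were 14.6% and 9.52%. In the fit of genes at that level the median was -0.57 for the list and 0.24 for all genes. Ccng1, a p53 target, was at 455 and 633 CPM at 45 min and 697, 345 and 976 CPM at 405 min (log2 fold change 0.27, SE 0.96). Ccni was at 151 and 276 CPM at 45 min and 86.4, 151 and 103 CPM at 405 min (log2 fold change -1.10, SE 0.72). Ccnl1, a cyclin linked to RNA processing, was at 121 and 192 CPM at 45 min and 47.3, 79.4 and 116 CPM at 405 min (log2 fold change -1.0001, SE 0.74).

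**Figure D4:**
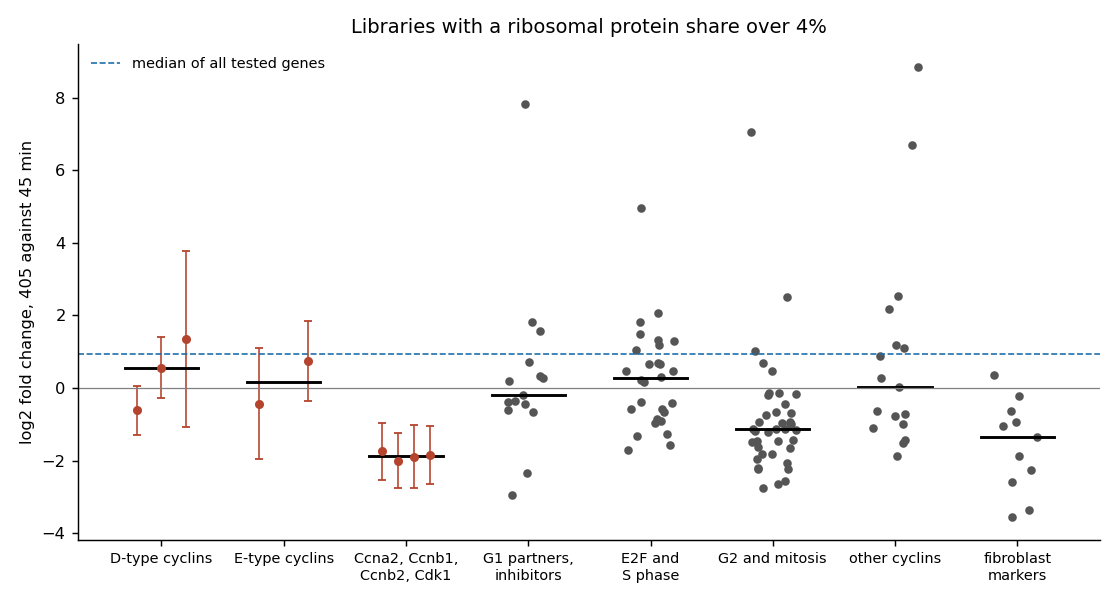
Fitted log2 fold change from 45 to 405 min in the RP-rich libraries for each tested gene of each list, with the members in red with their SE, a black bar at each list's median and a dashed line at the median of all tested genes. The points of Ccna2, Ccnb1, Ccnb2 and Cdk1 lie from -1.999 to -1.74, and the medians of the G2 and mitosis list and the fibroblast markers lie at -1.13 and -1.36, below the dashed line at 0.94.

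Of 11 fibroblast markers, 10 had negative fitted changes from 45 to 405 min (median -1.36) and 0 were called. Of all tested genes 70.4% were positive, with a median of 0.94. At a mean of at least 10 CPM, 7 of 10 lay lower without overlap, against 14.6% of all genes at that level. Vim, vimentin, was at 6006 and 7302 CPM at 45 min and 2510, 1193 and 4112 CPM at 405 min (log2 fold change -1.36, SE 1.65). Col1a2, a chain of type I collagen, was at 3064 and 2561 CPM at 45 min and 1287, 245 and 929 CPM at 405 min (log2 fold change -1.87, SE 1.22). Fn1, fibronectin, was at 5941 and 2708 CPM at 45 min and 9580, 1403 and 6713 CPM at 405 min (log2 fold change 0.37, SE 1.75). In bulk RNA, fewer cells in a state and less RNA per cell cannot be told apart.

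Genes of other cell types were scarce in the RP-rich libraries and highest in replicate 3 of 405 min, whose ribosomal protein share was the lowest of the class at 4.25%. The neural list (6 genes) summed to 1.03 and 21.3 CPM at 45 min, and to between 2.31 and 149 CPM at 405 min. Endothelial markers (4 genes) summed to 0.544 and 2.29 CPM at 45 min and 3.61 to 95.3 CPM at 405 min, with Cdh5 at 0 in both libraries of 45 min. Epithelial markers summed to 0.381 and 5.24 CPM at 45 min and 1.003 to 121 CPM at 405 min, with Epcam, Krt5 and Krt14 at 0 in both libraries of 45 min. The part of these levels in the values of the members was not tested.

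The genes whose course over the 7 RP-rich libraries was most like that of Ccnb1, by Pearson's r of log2 CPM with TMM factors over 19277 genes, were Sepp1, Anp32a, Slc25a24, Vezf1 and Prss23. Sepp1 (r = 0.996), which encodes selenoprotein P, was at 141 and 113 CPM at 45 min, 59.6 and 95.7 CPM at 135 min and 30.4, 29.6 and 58.8 CPM at 405 min. Prss23 was at 508 and 574 CPM at 45 min and 71.6, 77.2 and 143 CPM at 405 min. Ccna2 stood at rank 33 by this measure (r = 0.954), Ccnb2 at rank 1175 (r = 0.715) and Cdk1 at rank 2043 (r = 0.593). For Ccnd1 the nearest genes were Angptl2 (r = 0.965), Pxdn, Trappc4, H1f0 and Vamp3, and the nearest member was Ccne1 at rank 25 (r = 0.862). Angptl2 was at 173 and 56.2 CPM at 45 min and 111, 46.9 and 58.2 CPM at 405 min, high in the same libraries as Ccnd1. These correlations describe 7 libraries that share 3 times and differ in depth and composition.

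In build mm9, by the GENCODE M1 annotation, Ccnd1 lies on chromosome 7 (152115836 to 152125774) with Ccne1 (38883003 to 38892553) on the same chromosome, Ccnd2 on chromosome 6 (127075797 to 127101066) and Ccnd3 on chromosome 17 (47642000 to 47736632). Ccne2 lies on chromosome 4 (11118498 to 11131926), Ccna2 on chromosome 3 (36463788 to 36471072), Ccnb1 on chromosome 13 (101548605 to 101556525), Ccnb2 on chromosome 9 (70255496 to 70269361) and Cdk1 on chromosome 10 (68799383 to 68815686). The mouse genome holds processed copies of some cyclin genes, and the way the files assigned shared fragments was not given in the sources used here.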

How the data were processed

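RNA from 16 libraries of NIH3T3 cells was sequenced on an Illumina HiSeq. For every library the authors deposited a table of estimated counts, the raw fragments per gene, beside FPKM values. The study's methods name mouse build mm9, RefSeq and the DNAnexus platform, whereas the labels name mm10. The aligner was not given in the sources used here. Between 98.4% and 99.8% of the estimated counts were whole numbers (within 0.001), and all were rounded. In 1 table, 27 symbols written as dates were restored from the row order that the tables share. No 2 of 120 library pairs were identical.

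Counts were tested with edgeR 4.0.16 (R 4.3.3) quasi-likelihood F-tests with TMM factors and filterByExpr, which kept all 9 members, in 3 fits. These used all 16 libraries, the 7 with over 4% of fragments in ribosomal protein genes, and the 9 others (12, 4 and 5 residual degrees of freedom). A gene was called at a Benjamini-Hochberg adjusted p under 0.05. SE was obtained as the fitted change over the root of the F statistic. The CPM values given used all gene fragments, without scaling factors, whereas the correlations used log2 CPM with TMM factors. DESeq2 1.42.0 and other settings were alternatives, and the fit was tested on simulated data, where it recovered known changes at a low spread between libraries but none at the spread estimated from these libraries, so that a member without a call is not shown to be unchanged. Listed genes are the 3 most abundant of each list, since none was called, beside the 5 genes most correlated with Ccnb1 and with Ccnd1, and Hspa1b. The members and lists were chosen with earlier results of these data known. The columns of scaled fragments were not used. Promoters are from RefSeq (GRCm38.p6), and gene positions from GENCODE M1 (mm9), so that no position was converted between builds. The list of leukocyte markers is not reported here.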

Additional observations from a re-analysis of the deposited data

Results flagged for a closer look

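Dixon's test at the 95% level was applied in 40 groups of 4 libraries. At each time it took each member, as log2(CPM + 1), and the log2 ratio of mitotic to D-type fragments. The highest or lowest value was compared with the other 3. Chance flags about 1 group in 20, or 2 of 40, and 4 were flagged. All 4 were low values in RP-poor libraries. Ccnd1 in replicate 4 of 135 min was listed at 0, against 5.94 to 6.50 in the other libraries of its group. Ccne2 in the same library was at 1.09, from 1 fragment, against 4.56 to 5.24. In replicate 4 of the controls Ccnb1 was listed at 0, against 5.70 to 6.09, and Ccne1 was at 2.16, from 3 fragments, against 4.67 to 4.75. None of the values for the RP-rich libraries rests on these libraries, whereas the comparisons with control do.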

How the results depend on the processing

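Depth and composition limit these results. The controls were all RP-poor, with 861482 to 891245 fragments, the RP-rich class had 4 residual degrees of freedom, and the RP-poor class had 1 library at 405 min. No member was called in any of the 19 alternative fits of 405 against 45 min in the RP-rich libraries (smallest adjusted p = 0.0886, DESeq2) or in the 27 of 405 min against control over all libraries (smallest adjusted p = 0.104). Limits of 2% on the ribosomal protein share, or leaving out the Rps6k kinases, gave the same 7 libraries. Exact tests for members removed by the filter were not needed, as none was removed. Unless another value is given here, the cause of a change was not tested.

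The main fits did not pair libraries by replicate number. Deviations from the group means correlated at 0.0514 on average over 24 same-numbered pairs (-0.653 to 0.580). Over 72 differently numbered pairs the mean was -0.0166 (-0.822 to 0.873). The library classes divide each bortezomib group and enter these deviations, so a culture or batch shared by number could not be read from them. When replicate number entered as a block, counts of genes called lower over all libraries were 1 from control to 405 min, 1 from 135 to 405 min and 2 from 45 to 405 min, 0 members changed side, and from 45 to 135 min in the RP-rich libraries 0 genes were called. For 405 min in the RP-rich class no block was fitted, as 405 min shares 1 number with either earlier time.

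Over all libraries, the change of Ccne1 from control to 405 min turned from 0.46 to -0.46 with RLE factors, -0.62 without scaling factors and -0.46 with DESeq2, and that of Ccnb2 from 0.55 to -0.32, -0.52 and -0.32. With the log2 ribosomal protein share as a covariate, 7 members turned, Ccnd1 to -0.27, Ccnd3 to 0.40, Ccne1 to -0.34, Ccne2 to -0.30, Ccna2 to -1.34, Ccnb1 to -0.090 and Ccnb2 to -2.55. In the RP-rich libraries, scaling to the summed ribosomal protein fragments, chosen after seeing the data, turned Ccnd1 to 0.11 and Ccne1 to 0.30.

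Leaving out each library in turn gave -2.36 to -1.45 for Ccna2, -2.78 to -1.71 for Ccnb1, -2.37 to -1.67 for Ccnb2 and -2.41 to -0.995 for Cdk1 from 45 to 405 min in the RP-rich libraries. Ccnd1 ranged from -1.09 to 0.17 and Ccne1 from -0.84 to 0.18, both positive without replicate 1 of 45 min. Ccnd2 ranged from -0.11 without replicate 2 of 45 min to 2.05, and was -0.02 without replicate 1 of 405 min. Over all libraries Ccne1 ranged from -0.16 without replicate 1 of 405 min to 0.82.

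Counts of called genes over the whole table moved by more than 1.5 times as follows. Over all libraries, from control to 405 min, edgeR called 0 higher and 1 lower, against 297 and 5 with DESeq2, 2 and 3 with the exact test and 1 and 4 with the covariate. The count lower was 0 when at least 1 count was required in every library or when only the 2 groups were fitted. DESeq2 called 194 genes higher at 45 min and 9 at 135 min against control, where edgeR called 0, and the genes called at 45 min included Cdk1 (adjusted p = 0.0413). From 135 to 405 min the count lower was 1, against 0 with at least 1 count in every library, 2 without a filter, with RLE factors or without scaling factors, and 4 with DESeq2, the exact test or the covariate. From 45 to 405 min it was 2, against 0 with at least 1 count in every library or only the 2 groups, 1 with TMMwsp factors or a mean of at least 10 CPM (chosen after seeing the data), 5 with DESeq2 and 4 with the exact test or the covariate, and the count higher was 0, against 4 with DESeq2 and 1 with the covariate. Leaving out each library gave 1 to 2 lower from control to 405 min (2 without replicate 4 of 135 min), 1 to 2 lower and 0 to 3 higher from 135 to 405 min (3 without replicate 2 of 135 min), and 1 to 2 lower from 45 to 405 min.

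In the RP-rich libraries, from 45 to 405 min, edgeR called 2 higher and 4 lower. This became 0 and 0 with at least 1 count in every library, 0 and 2 with a mean of at least 10 CPM, 164 and 24 with DESeq2, and the count higher was 10 without a filter, 1 without scaling factors or with ribosomal protein scaling, 5 with the exact test and 13 with a limit of 6%. From 135 to 405 min it called 0 higher and 4 lower. The count lower was 0 with at least 1 count in every library, 2 with a mean of at least 10 CPM and 8 with the limit of 6%, and the count higher was 4 without a filter, 3 with TMMwsp factors and 14 with the limit of 6%. From 45 to 135 min it called 0 higher, against 3 without a filter, 2 with DESeq2 and 1 with the limit of 6%. Leaving out each library gave 0 to 30 higher (30 without replicate 2 of 45 min) and 4 to 8 lower from 45 to 405 min, 0 to 308 higher and 4 to 17 lower from 135 to 405 min (308 and 17 without replicate 2 of 135 min), and 0 to 36 higher (36 without replicate 2 of 45 min) and 0 to 185 lower (185 without replicate 2 of 135 min) from 45 to 135 min. With an arm of 1 library, that library is assumed to vary like the other groups.

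The mean log2 ratio of mitotic to D-type fragments was 3.40 at 45 min, 3.50 at 135 min, 1.99 at 405 min and 1.14 in controls when Ccnd1 alone was the denominator, against 2.43, 2.40, 0.37 and -0.65. Leaving out each library gave 1.44 to 3.41 at 45 min, 1.76 to 3.05 at 135 min, -0.02 to 1.02 at 405 min and -0.98 to -0.31 in controls.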
